A study of Mus musculus with 6 samples.

Results

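The mitochondrial ribosomal protein genes were followed in hematopoietic stem cells (HSCs) of WT and Merit40-/- mice, as all genes of the array whose Entrez Gene number carries a symbol that starts with Mrpl or Mrps and a digit. This rule found 76 genes among 23185 named genes of the array. It uses names alone and no measured value. Mrpl27 and Mrps18c were not analysed here. The arrays (Affymetrix Mouse Gene 2.0 ST) held RNA of CD150+CD48-LSK cells, taken fresh from adult bone marrow of mice labelled as young. LSK stands for cells without lineage antigens that carry Sca-1 and c-Kit. There were 3 arrays of WT mice and 3 of Merit40-/- mice, and no treatment. The labels call the arrays biological replicates but do not say whether mice were pooled or how the deletion was made, so the p-values measure the spread between these arrays.

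The mitochondrial ribosome translates the few proteins that mitochondrial DNA encodes, all of them subunits of the respiratory chain and of ATP synthase. Its RNAs are transcribed inside the organelle, while its proteins are encoded in the nucleus, made in the cytosol and imported. Many of these proteins descend from bacterial ribosomal proteins, and others were added in the course of mitochondrial evolution. HSCs at rest are known for a low rate of oxidative metabolism. Merit40, encoded by Babam1, belongs to BRISC and to the BRCA1-A complex, both of which cleave lysine-63-linked ubiquitin chains.

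The array values are log2 levels on which each array has nearly the same distribution, with medians of 4.91 to 4.97. Probe sets differ in how brightly they read, so the levels of 2 genes are not compared, and the median of all genes (4.93) serves only as a rough mark of low signal. Babam1, the deleted gene, read 7.91, 8.04 and 8.05 in WT and 4.29, 3.87 and 4.01 in Merit40-/- cells, a difference of -3.94 (SE 0.14, adjusted p = 5.04e-05 in limma). Of the HSC markers, 5 of 7 were measured (Slamf1, Kit, Procr, Mecom and Hlf), and all 5 lay above the median of all genes on every array. Of 5 measured genes for CD48, lineage antigens and Flt3, 4 also lay above that median on every array: Cd48 (4.99 to 5.88), Flt3 (6.30 to 7.27), Itgam (6.03 to 6.88) and Ly6g (5.88 to 7.66). Flt3 is not part of the gate named above. The T cell gene Cd3e read at most 3.40. Ly6g, a neutrophil antigen, differed by 0.81 between the genotypes (unadjusted p = 0.029, adjusted p = 0.999 in limma). It was the only 1 of these 5 under an unadjusted p of 0.05, against 4.22% of all genes. The granulocyte and monocyte genes, all 10 of them, also lay above the median of all genes on every array. Their mean levels over the 6 arrays ran from 6.81 (Ctsg) to 12.02 (S100a9). Between genotypes 6 of them were higher and 4 lower in Merit40-/- cells (median 0.041), from -0.13 (Lcn2) to 0.92 (Ctsg). Some arrays stood apart. In Merit40-/- replicate 1 all 10 skeletal muscle markers were at their highest, with a mean level of 8.80 against 4.65 to 5.04 on the other arrays. In Merit40-/- replicate 3 the mean of 7 osteoclast markers was 5.53 against at most 4.20 elsewhere, with 5 of the 7 at their highest. The means of 2 further lists did not overlap between the genotypes. The 6 megakaryocyte markers averaged 7.86 to 8.09 in WT and 7.53 to 7.71 in Merit40-/- arrays, and the 8 erythroid markers 7.14 to 7.38 and 6.86 to 7.07. By sign, 4 megakaryocyte markers were lower and 2 higher in Merit40-/- cells (median -0.46), and 6 erythroid markers lower and 2 higher (median -0.24). In limma, 2 megakaryocyte and 3 erythroid markers were lower at an unadjusted p under 0.05, and 0 were higher. Over all genes, 1.96% were lower and 2.26% higher at that threshold, and 0 of these markers passed the adjusted one. The part of these cell types in the results was not tested. In such bulk samples, fewer cells of a type and less RNA per cell cannot be told apart.

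The stretches in front of some member genes are shown first, because the letters they share, and the starts they share with other genes, recur in the results. They come from RefSeq (build GRCm38.p6), which held a promoter for 67 of the 76 genes. Each is read 5′ to 3′ on the gene's strand and ends 1 base before the transcription start. Capitals mark the letters CCGGAAG (the core bound by ETS factors such as GABP), GCGCATG (part of the site of NRF1) and AAGATGG (part of the site of YY1), on either strand. GABP, NRF1 and YY1 are known regulators of nuclear genes for mitochondrial proteins. Mrpl34 is shown because it lies close to Babam1, Mrps18a because it belongs to the Mrps18 family, and Mrpl32 because it holds the NRF1 letters 4 times, with 1 pair overlapping. Mrpl52 holds ETS and YY1 letters and was among the steadiest genes across arrays. Mrps14 holds none of the marked letters here and varied most. Both are shown with their values in view, and Mrpl24, the steadiest of the 76, also holds none in these 120 bases. In the longer window used below, the median range over the 6 arrays was 0.53 with and 0.65 without the ETS letters. It was 0.61 and 0.62 for YY1 and 0.54 and 0.65 for NRF1, which was not tested. The last stretch is the whole of what separates the starts of Mrps11 and Mrpl46, read on the strand of Mrps11.
Mrpl34, chr8:71464806-71464925, plus strand: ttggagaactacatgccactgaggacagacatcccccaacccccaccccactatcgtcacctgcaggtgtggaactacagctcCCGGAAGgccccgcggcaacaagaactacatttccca
Mrps18a, chr17:46110884-46111003, plus strand: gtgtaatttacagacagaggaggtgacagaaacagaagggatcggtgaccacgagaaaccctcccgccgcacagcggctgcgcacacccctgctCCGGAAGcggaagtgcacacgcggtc
Mrpl32, chr13:14613038-14613157, minus strand: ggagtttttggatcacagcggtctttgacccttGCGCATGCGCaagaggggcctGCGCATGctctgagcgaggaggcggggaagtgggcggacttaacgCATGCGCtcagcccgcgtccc
Mrpl52, chr14:54426789-54426908, plus strand: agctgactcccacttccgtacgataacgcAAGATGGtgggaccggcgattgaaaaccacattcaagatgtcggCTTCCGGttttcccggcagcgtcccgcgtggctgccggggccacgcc
Mrps14, chr1:160195095-160195214, plus strand: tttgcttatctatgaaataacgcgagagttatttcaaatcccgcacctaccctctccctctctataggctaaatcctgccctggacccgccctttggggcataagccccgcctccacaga
Mrps11, chr7:78783090-78783130, plus strand: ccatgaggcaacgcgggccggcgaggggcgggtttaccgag

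No mitochondrial ribosomal protein gene passed the test between Merit40-/- and WT cells. In limma with Benjamini-Hochberg adjustment over 23185 genes, 0 of 76 passed an adjusted p of 0.05, where 0.00431% of all genes did (Babam1 alone). At an unadjusted p under 0.05, 0 of 76 were found against 4.22% of all genes (2.26% higher and 1.96% lower). The differences ran from -0.48 (Mrpl21) to 0.33 (Mrps31), and only 4 of the 76 were larger than 0.3 in size. By sign, 40 genes were higher and 36 lower in Merit40-/- cells, with a median difference of 0.014 beside 0.0052 for all genes. For 74 of the 76 genes the whole 95% interval was inside a 2-fold change in either direction, and for 56 inside a 1.5-fold change. The exceptions at 2-fold were Mrpl21 (-1.06 to 0.10) and Mrps14 (-1.42 to 1.02). The 3 WT and 3 Merit40-/- arrays did not overlap for 1 of the 76 genes (1.32%), against 9.05% of all genes: 0 were higher throughout (4.84% of all genes) and 1 was lower (4.22%).

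**Figure D1:**
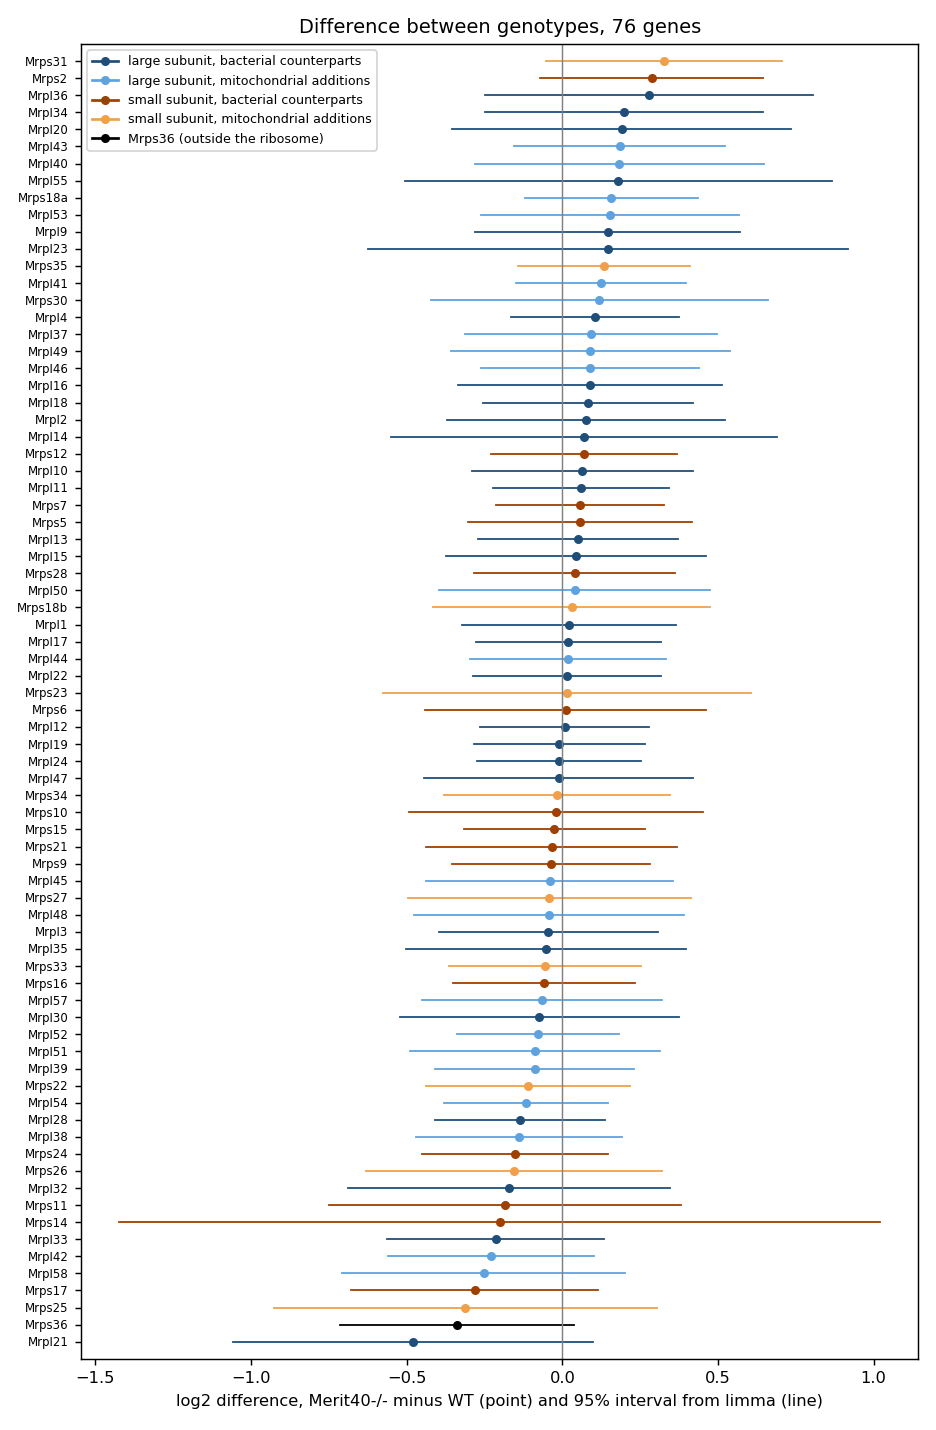
Each row is 1 of the 76 genes, with its log2 difference (Merit40-/- minus WT) as a point and limma's 95% interval as a line, coloured by subunit and by whether bacteria have a counterpart. All 76 intervals include 0, and the points run from -0.48 (Mrpl21) to 0.33 (Mrps31).

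The genes were grouped by the place of their protein in the ribosome, which moved 2 of them across the naming: the proteins of Mrps30 and Mrps18a are known to sit in the large subunit. Of 29 genes for large subunit proteins with bacterial counterparts, 19 were higher and 10 lower, with a median of 0.043. Of 21 large subunit proteins added in mitochondria, 11 were higher and 10 lower (median 0.018). Of 15 small subunit proteins with bacterial counterparts, 6 were higher and 9 lower (median -0.026), and of 10 added ones 4 were higher and 6 lower (median -0.029). None of these genes passed the test, and in none of the 4 groups did the mean level separate the WT from the Merit40-/- arrays. Mrps36 stands outside these groups, since its protein is known as part of the 2-oxoglutarate dehydrogenase complex and not of the ribosome. It read 5.78, 6.10 and 6.38 in WT and 5.83, 5.76 and 5.66 in Merit40-/- (difference -0.34, SE 0.16, adjusted p = 0.999 in limma). Its groups overlapped through WT replicate 1.

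Among the large subunit proteins with bacterial counterparts, Mrpl21 had the lowest difference of all 76 genes. It read 5.42, 5.88 and 5.67 in WT and 5.08, 4.71 and 5.73 in Merit40-/- cells. Merit40-/- replicates 1 and 2 lay below every WT array, and replicate 3 lay among them, for a difference of -0.48 (SE 0.25, adjusted p = 0.999 in limma). Mrpl33 read 9.52, 9.78 and 9.47 against 9.14, 9.44 and 9.55 (difference -0.21), again with replicate 3 among the WT values. At the other end, Mrpl36 read 6.94, 7.05 and 7.01 in WT and 6.79, 7.78 and 7.27 in Merit40-/- (difference 0.28, SE 0.23). Its WT arrays were close together, and Merit40-/- replicate 1 lay below all of them while the other two lay above. Mrpl20 differed by 0.19 (SE 0.24) and Mrpl55 by 0.18 (SE 0.30). The value of Mrpl55 rests on Merit40-/- replicate 3, at 9.25 against 7.98 to 8.63 on the other arrays, and its difference is -0.17 without that array. Mrpl23 lay below the median of all genes on every array (3.02 to 4.41), where log2 values are compressed, and it was the only one of the 76 with a mean level there.

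Other proteins of this group have well known tasks, and their genes read almost alike in both genotypes. Mrpl12 encodes the stalk protein that binds translation factors. It read 9.91, 9.98 and 10.05 in WT and 9.86, 10.08 and 10.03 in Merit40-/- cells. Mrpl24 had the narrowest range of all 76 genes, 0.18 over the 6 arrays. It read 10.12, 10.25 and 10.13 in WT and 10.17, 10.23 and 10.07 in Merit40-/- (difference -0.010, 95% interval -0.27 to 0.25). Mrpl4 read 7.28, 7.28 and 7.27 in WT and 7.52, 7.27 and 7.35 in Merit40-/-, so that Merit40-/- replicates 1 and 3 stood above the WT arrays and replicate 2 among them. Mrpl11, of the stalk base, differed by 0.06 (SE 0.12), and Mrpl3, a protein near the catalytic centre, by -0.04 (SE 0.15).

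Among the large subunit proteins added in mitochondria, Mrpl54 was the one gene of the 76 whose genotypes did not overlap. It read 9.09, 9.29 and 9.12 in WT and 9.04, 9.03 and 9.09 in Merit40-/- cells. The highest Merit40-/- array and the lowest WT array both round to 9.09, and the difference of -0.12 (SE 0.11) did not pass (adjusted p = 0.999 in limma). Mrpl58, a peptidyl-tRNA hydrolase that became a part of the ribosome, read 7.61, 8.16 and 7.92 in WT and 7.47 and 7.46 in Merit40-/- replicates 2 and 3 (difference over all arrays -0.25, SE 0.20). Merit40-/- replicate 1 was above WT replicates 1 and 3 and below WT replicate 2. Mrpl42 differed by -0.23 (SE 0.14). Mrpl43 read 6.39, 6.81 and 6.53 against 6.63, 6.75 and 6.90 (difference 0.18, SE 0.15), and Mrpl40 differed by 0.18 (SE 0.20). Mrpl52, whose promoter is printed above, stayed between 10.43 and 10.62 on the 6 arrays.

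In the small subunit, Mrps31 had the highest difference of all 76 genes. It read 6.56, 7.03 and 6.65 in WT and 6.96, 7.29 and 6.96 in Merit40-/- cells (difference 0.33, SE 0.17, adjusted p = 0.999 in limma). WT replicate 2 lay above 2 of the 3 Merit40-/- arrays. Mrps2 read 8.01, 8.12 and 8.45 against 8.60, 8.29 and 8.56 (difference 0.29, SE 0.16), with WT replicate 3 above Merit40-/- replicate 2. Mrps17 differed by -0.28 (SE 0.17), with Merit40-/- replicate 2 at 8.34 against 8.86 to 9.06 on the other arrays. Mrps12, of the decoding centre, differed by 0.07 (SE 0.13), and Mrps7, which binds ribosomal RNA in the head of the subunit, by 0.06 (SE 0.12).

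The Mrps18 family has members in both subunits and was represented by Mrps18a and Mrps18b. Mrps18a read 8.75, 8.77 and 8.59 in WT and 8.73, 8.93 and 8.92 in Merit40-/- (difference 0.16, 95% interval -0.12 to 0.44). Mrps18b read 8.45, 8.32 and 7.92 against 8.31, 8.52 and 7.95 (difference 0.03, 95% interval -0.42 to 0.47). In both genes the genotypes overlapped.

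**Figure D2:**
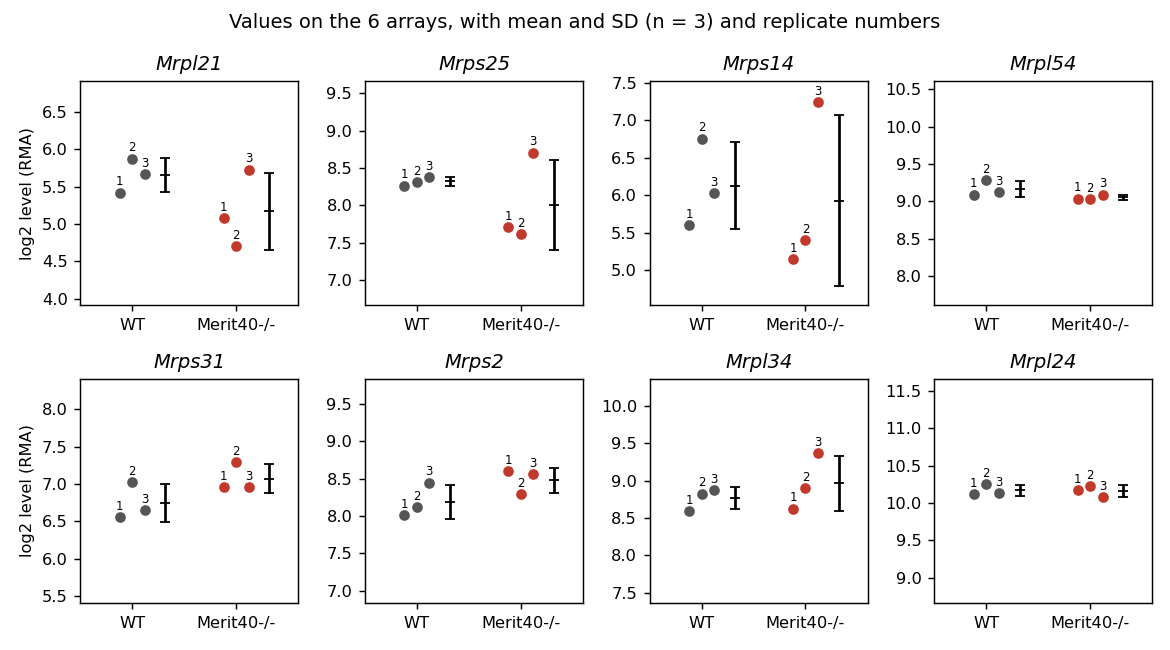
Points are log2 levels on the 6 arrays for 8 genes, numbered by replicate, with the mean and SD (n = 3) of each genotype beside them, and every panel spans 3 log2 units. Mrpl54 alone has genotypes that do not overlap, while Mrpl21, Mrps25 and Mrps14 have Merit40-/- replicates 1 and 2 below all WT arrays and replicate 3 not.

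Several genes set Merit40-/- replicate 3 apart from the other two Merit40-/- arrays. Mrps25 read 8.27, 8.32 and 8.38 in WT, 7.71 and 7.61 in Merit40-/- replicates 1 and 2, and 8.71 in replicate 3. Its WT arrays had an SD of 0.06 and its Merit40-/- arrays one of 0.61. Mrps14 had the widest range of the 76 genes, 2.10, with 5.60, 6.76 and 6.03 in WT and 5.14, 5.40 and 7.24 in Merit40-/-. Without replicate 3 the difference of Mrps25 is -0.66, of Mrps14 -0.86 and of Mrpl21 -0.76, at unadjusted p values of 0.00127, 0.0287 and 0.00477 in limma (adjusted p = 0.95, 0.986 and 0.986). These were chosen after their values were seen. In all, 7 of the 76 genes (9.21%) had replicates 1 and 2 below every WT array and replicate 3 not, against 5.19% of all genes. The others were Mrpl42, Mrpl33, Mrpl28 and Mrps27. This replicate is the array with high osteoclast markers, whose part in these values was not tested.

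The arrays differed more from each other within a genotype than the genotypes did. The mean level of the 76 genes was 7.70, 7.98 and 7.82 in WT replicates 1 to 3, and 7.72, 7.81 and 7.96 in the Merit40-/- replicates. Both genotypes averaged 7.83, with an SD of 0.14 over the 3 WT and 0.12 over the 3 Merit40-/- arrays, whereas WT replicate 2 stood 0.28 above WT replicate 1. In that pair of WT arrays 63 of the 76 genes were higher in replicate 2, where 49.9% of all genes were. Merit40-/- replicate 3 stood 0.24 above replicate 1, with 57 of the 76 genes higher and 52.4% of all genes. WT replicate 2 exceeded the mean of the other 5 arrays for 61 of the 76 genes (80.3%) and Merit40-/- replicate 3 for 60 (78.9%). Over all genes these shares were 47.3% and 51.6%, and over other genes above the median level 55.4% and 48.0%. At the low end, WT replicate 1 did so for 20 genes (26.3%) and Merit40-/- replicate 1 for 24 (31.6%). Over all genes these shares were 48.2% and 48.5%, and over other genes above the median level 47.0% and 55.9%.

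**Figure D3:**
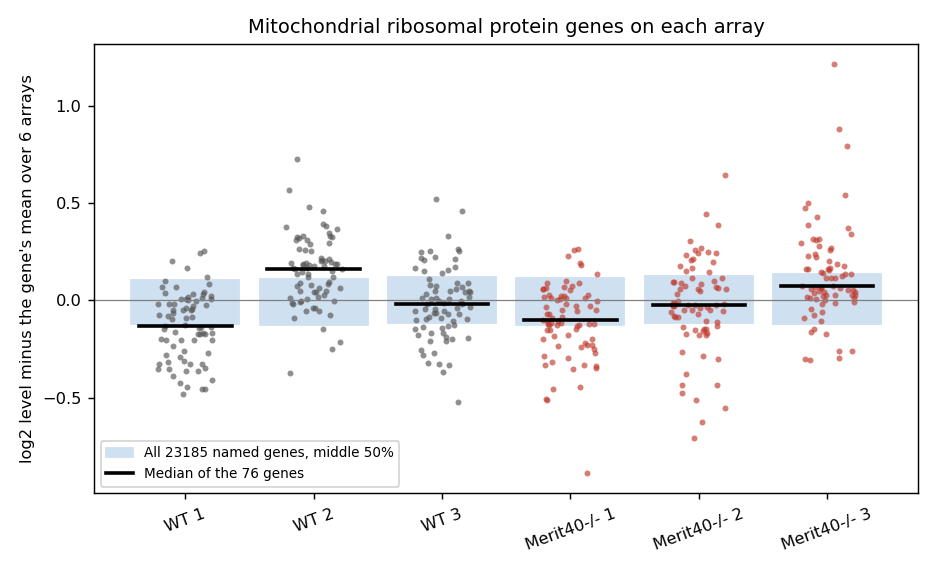
Each point is 1 of the 76 genes on 1 array, as its log2 level minus its own mean over the 6 arrays, with the median of the 76 as a black bar and the middle 50% of all 23185 genes as a blue box. The genes lie mostly above 0 on WT replicate 2 and Merit40-/- replicate 3 and mostly below it on WT replicate 1 and Merit40-/- replicate 1.

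Since each genotype has a high and a low array, the sign of the median difference depended on which arrays were compared. Without WT replicate 1 the median was -0.069, with 27 of 76 genes higher, and without WT replicate 2 it was 0.078, with 56 higher. Leaving out Merit40-/- replicate 1, where muscle markers were high, gave 0.061, and leaving out replicate 3, where osteoclast markers were high, gave -0.036. Without WT replicate 3 it was -0.0077. The widest gap in mean level was between 2 WT arrays. WT replicate 2 had a muscle mean of 4.92, and 0 of the 7 osteoclast markers were highest there. Its mean of the megakaryocyte markers, 8.09, was the highest of all arrays. At the other end of this gap, WT replicate 1 had a muscle mean of 4.65. Its mean of the erythroid markers, 7.38, was the highest of all arrays, and that of the HSC markers, 9.08, the lowest. The part of these other cell types in the array means was not tested.

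Other gene families of mitochondria and of ribosomes were set beside these values. Respiratory complex I, the first enzyme of the respiratory chain, exceeded the mean of the other 5 arrays in WT replicate 2 for 32 of 35 genes and in Merit40-/- replicate 3 for 23, but for 6 in Merit40-/- replicate 1. The proteins of the cytosolic ribosome did so for 43, 41 and 21 of 61 genes. In both families WT replicate 2 and Merit40-/- replicate 3 were thus the high arrays of their genotype and Merit40-/- replicate 1 the low one, as for the mitochondrial ribosome. The low WT array was less clear. In complex I, WT replicates 1 and 3 were each above the mean of the others for 14 genes. In the cytosolic ribosome, WT replicate 1 was so for fewer genes than replicate 3 (21 and 27), as for the mitochondrial ribosome. There the mean distances of WT replicates 1 and 3 from the other 5 arrays were close, -0.056 and -0.052 over the cytosolic ribosomal protein genes. The lists described below did not all repeat this order. WT replicate 2 was above the mean of the others for 19 of 25 assembly factors, 11 of 15 translation factors and 13 of 19 genes for charging mitochondrial tRNA. Merit40-/- replicates 1 and 3 were so for 13 and 12, for 8 and 7, and for 8 and 11 of these genes. Between genotypes, complex I had a median difference of -0.058 and 0 genes past an unadjusted p of 0.05, and the cytosolic ribosomal proteins had a median of -0.049 with 1 gene higher (Rps16) and 2 lower (Rps23, Rpl14) at that threshold. Over all genes 4.22% passed it, 2.26% higher and 1.96% lower. Cytosolic ribosomal protein genes have many near-identical copies, so their probe sets may read more than 1 gene. These arrays carry all the families at once, so such likeness is a description of 6 arrays and was not tested.

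Genes that build or serve the mitochondrial ribosome were listed by task. The list of ribosomal proteins under other names had 4 of 5 measured, and none passed. Chchd1, of the small subunit, read 7.02, 7.23 and 6.97 in WT and 6.71, 6.93 and 6.85 in Merit40-/- cells (difference -0.25, SE 0.13). Its genotypes did not overlap, as for 9.05% of all genes in either direction. Gadd45gip1, of the large subunit, differed by 0.014. The 25 assembly factors, which fold and modify ribosomal RNA and join the subunits, had 15 genes higher and 10 lower (median 0.049). They ran from Mtg1, a GTPase of large subunit assembly, at -0.26 (SE 0.23) to Mterf4, which brings a methyltransferase to the ribosome, at 0.38 (SE 0.26). Of the 15 translation factors and partners, 5 were higher and 10 lower (median -0.062). They ran from the release factor gene Mtrf1 (-0.18, SE 0.12) to the initiation factor gene Mtif3 (0.41, SE 0.20). At an unadjusted p under 0.05 there were 0 of 25 assembly factors and 0 of 15 translation factors, against 4.22% of all genes.

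The 19 measured of 20 genes for charging mitochondrial tRNA held 3 past an unadjusted p of 0.05 (4.22% of all genes), 1 higher (2.26%) and 2 lower (1.96%), and 0 past the adjusted threshold in limma. Nars2, the asparaginyl-tRNA synthetase, read 6.77, 6.70 and 6.72 in WT and 5.89, 5.54 and 6.78 in Merit40-/- (difference -0.66, SE 0.28). Merit40-/- replicate 3 again lay at the WT level and the other two below it. Gatc, of the glutamyl-tRNA amidotransferase, read 7.34, 7.76 and 7.66 against 7.11, 6.92 and 7.28 (difference -0.48, SE 0.16), with no overlap, as for 9.05% of all genes in either direction. Wars2, the tryptophanyl-tRNA synthetase, read 6.16, 5.97 and 5.79 against 6.23, 6.37 and 6.27 (difference 0.32, SE 0.13), also with no overlap. Pars2 had the highest difference of this list (0.43, SE 0.21).

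Of 14 regulators of mitochondrial gene expression, 5 were higher and 9 lower (median -0.059). Tfam alone lay under an unadjusted p of 0.05, against 4.22% of all genes. Tfam packages and transcribes mitochondrial DNA. It read 6.99, 7.03 and 6.65 in WT and 7.12, 7.84 and 7.34 in Merit40-/- cells (difference 0.54, SE 0.20, unadjusted p = 0.0277, adjusted p = 0.999 in limma). All 3 Merit40-/- arrays lay above all WT arrays, as for 4.84% of all genes. Tfb2m, a transcription factor of the same promoters, scattered from 2.78 to 7.08, with 4.01, 3.91 and 5.87 in WT and 3.20, 7.08 and 2.78 in Merit40-/-. Gabpa, the DNA-binding subunit of GABP, differed by 0.04 (SE 0.13), and Nrf1 by -0.17 (SE 0.14).

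The promoters of the mitochondrial ribosomal protein genes shared letters and arrangement that the names do not use. The window was 250 bases before to 50 bases after the start, on both strands, and shares are of genes with at least 1 match in any listed promoter. CCGGAAG (ETS) was found for 24 of 67 genes (35.8%), against 12.8% of 17452 named genes of the array with a promoter. AAGATGG (YY1) was found for 13 (19.4%), against 7.26%, and GCGCATG (NRF1) for 8 (11.9%), against 5.52%. TATAAA, the TATA box, was found for 5 (7.46%), against 14.1%. At least 1 of the ETS, YY1 and NRF1 matches was found for 36 of the 67 genes (53.7%), against 22.9%. The median promoter had 21 CG dinucleotides in this window against 13 for the named genes, and a GC content of 58.3% against 56.7%. In the 250 bases before the start alone, the ETS letters were found for 16 genes (23.9%), against 1753 of the 17452 named genes. The YY1 letters were found there for 6 genes (8.96%), against 4.86%, and the NRF1 letters for 8 (11.9%), against 4.66%. The ETS and YY1 shares of the full window thus rest in part on matches that reach past the start. A match describes letters and is not a measured binding site. The median difference between genotypes was -0.042 for the 24 genes with the ETS letters and 0.021 for the 43 without. It was -0.042 with and 0.014 without the YY1 letters, and 0.017 with and 0.0078 without the NRF1 letters. For the TATA box it was -0.043 with and 0.014 without. These splits were not tested.

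**Figure D4:**
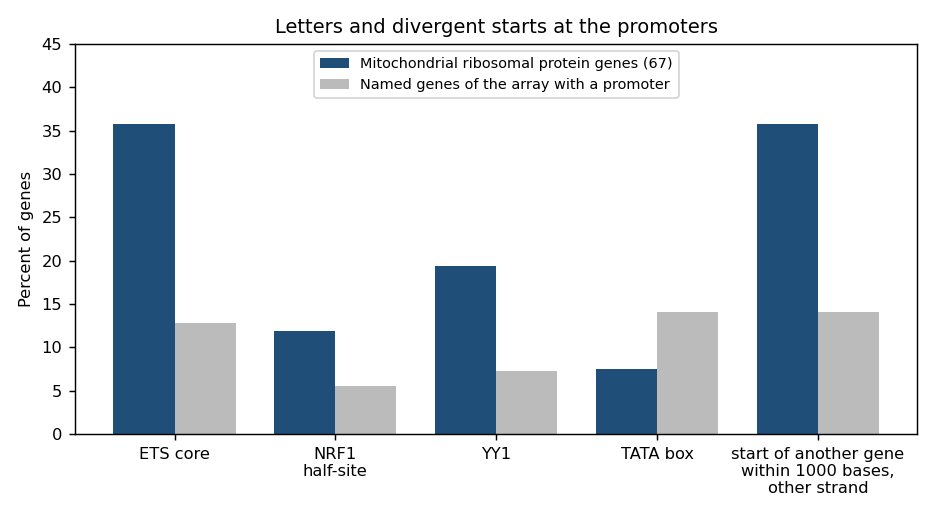
Bars give the percent of genes with each set of letters in a listed promoter, and with the start of another gene on the opposite strand within 1000 bases upstream, for 67 mitochondrial ribosomal protein genes and for 17452 named genes. The ETS letters and divergent starts each reach 35.8% of the 67 genes, and the TATA box stands at 7.46% against 14.1%.

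Many of these genes start back to back with another gene. For 24 of the 67 (35.8%), the start of a gene on the opposite strand lay within 1000 bases upstream, against 14.1% of the named genes. Their median difference was 0.056, and that of the other 43 genes was -0.022. For 19 of the 24 the starts were at most 250 bases apart, and the median distance was 129.5 bases. Mrps11 and Mrpl46 form such a pair by themselves, with 42 bases from start to start and the 41 bases between them printed above. Mrps11 read 8.04, 7.79 and 8.56 in WT and 7.59, 7.89 and 8.35 in Merit40-/- (difference -0.18, SE 0.25). Mrpl46 read 7.70, 7.94 and 7.40 against 7.75, 7.82 and 7.74 (difference 0.09, SE 0.15). The 2 genes of this pair were not high on the same arrays: WT replicate 2 had the highest WT level of Mrpl46 and the lowest of Mrps11.

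Several partners also serve mitochondria. Mrps12 starts 147 bases from Sars2, the mitochondrial seryl-tRNA synthetase, and they differed by 0.07 (SE 0.13) and 0.13 (SE 0.17). Mrpl43 starts 116 bases from Twnk, the helicase of mitochondrial DNA replication, with differences of 0.18 (SE 0.15) and 0.11 (SE 0.26). Mrpl47 starts 308 bases from Ndufb5, a subunit of complex I, with -0.012 (SE 0.19) and -0.17 (SE 0.11). Others serve the cell at large: Mrpl18 pairs with the chaperonin gene Tcp1, Mrpl32 with the proteasome gene Psma2, Mrpl49 with the cytosolic ribosomal protein gene Fau, and Mrpl40 with the histone chaperone gene Hira. The lowest of the 76 genes, Mrpl21, starts 32 bases from Ighmbp2, which differed by -0.03 (SE 0.21). All 24 partners were measured, and 0 of them passed an unadjusted p of 0.05 in limma, against 4.22% of all genes.

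**Figure D5:**
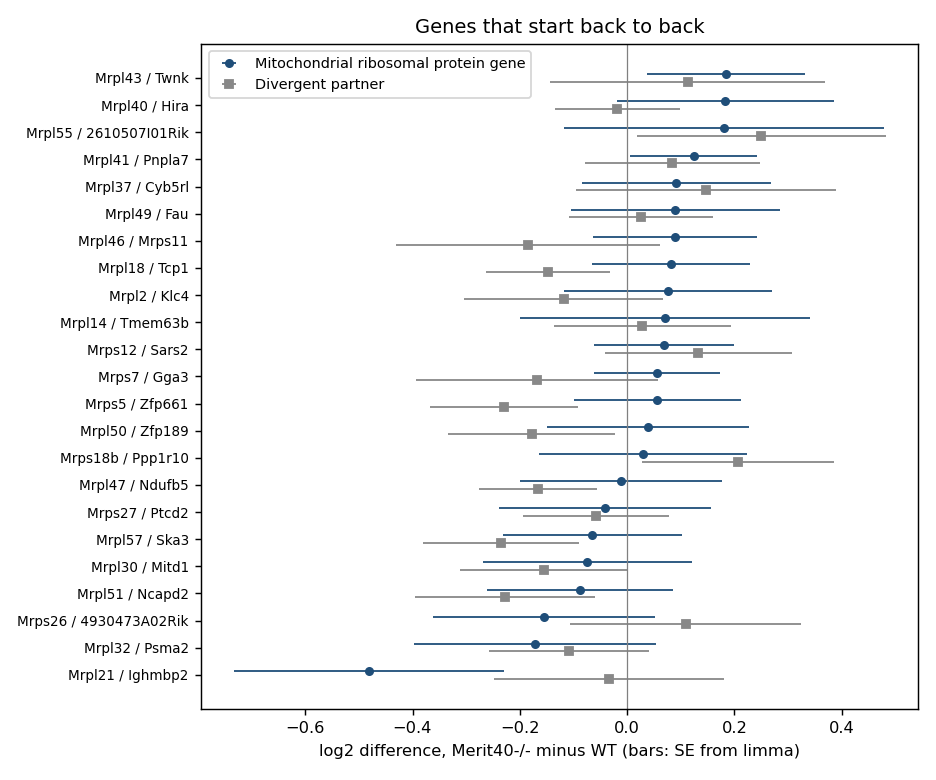
Log2 differences (Merit40-/- minus WT, with SE) of the mitochondrial ribosomal protein gene (blue) and of the gene that starts back to back with it (grey) are drawn for each pair, with Mrps11 and Mrpl46 drawn once. Mrpl21, at -0.48, lies apart from its partner Ighmbp2, at -0.03.

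Mrpl34 lies on chromosome 8 at the fourth place after the deleted gene Babam1 in the order of RefSeq genes, with Ankle1 and Abhd8 among those between. It read 8.60, 8.83 and 8.88 in WT and 8.63, 8.90 and 9.37 in Merit40-/- cells. The difference of 0.20 (SE 0.19, adjusted p = 0.999 in limma) rests on Merit40-/- replicate 3, and without that array it was -0.0020. Ankle1, an endonuclease gene, differed by -0.08 (SE 0.18) and Abhd8, of the hydrolase family, by 0.07 (SE 0.20). The next named genes beyond Mrpl34 were Dda1 at 0.06 (SE 0.13), Ano8 at 0.23 (SE 0.16) and Gtpbp3, which modifies mitochondrial tRNA, at -0.10 (SE 0.15). None of these passed the test, and the genotypes overlapped in Mrpl34, Ankle1 and Abhd8.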

How the data were processed

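The authors deposited a log2 level per probe set and array. RMA and affy are named in the submitters' processing notes, while versions, a chip definition and a build were not given in the sources used here. RMA gives all arrays the same distribution, so it removes any overall difference in RNA between them, and it compresses the log2 values of dim genes. Of 25206 probe sets, 2021 have no name here, 0 have several symbols and 23185 have 1. All 23185 were tested, without a filter on level, with limma 3.58.1 under R 4.3.3. Its lmFit and eBayes steps used genotype alone, and 2-sided p-values were adjusted by Benjamini-Hochberg. The procedure was tested on simulated data. Precision is limited by the number of arrays, and the 95% interval of the 76 genes had a median of ±0.378.

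The members and lists were chosen with earlier results of these data known. Named genes are Babam1, the 8 members with the highest and the 8 with the lowest difference, any member past an unadjusted p of 0.05, those with the highest and lowest level, Mrpl34 with its neighbours, and the Mrps18 family. Of the lists of genes that build, serve or regulate the mitochondrial ribosome, members past that p are named, or else those with the highest and lowest difference. This rule was not applied to the cell type markers or to complex I. Further genes (among them Mrpl4, Mrpl12, Mrpl24, Mrpl52, Mrpl54 and the divergent pairs) were chosen with their values in view. The alternatives were a replicate block, array weights, an intensity trend, a filter on dim genes at 2 levels, 2 further scalings and each array left out. Replicate numbers were not taken to pair the arrays, as the labels do not state a pairing.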

Additional observations from a re-analysis of the deposited data

How the results depend on the processing

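The count of 0 of 76 genes past the adjusted threshold held under all 13 alternatives run in limma, as did the call of Babam1, at -4.06 to -3.85 with 1 array left out. At an unadjusted p under 0.05 the count was 0 in 6 of the other 7 settings and 1 with the replicate block (Mrps31). With 1 array left out it was 0 to 3: 3 without WT replicate 2 (Mrpl40, Mrps31, Mrpl53) or Merit40-/- replicate 3 (Mrpl21, Mrps25, Mrps14), and 1 without WT replicate 1 (Mrps36), WT replicate 3 (Mrps2) or Merit40-/- replicate 1 (Mrpl36). A count of 3 is 3.95% of the 76 genes. Over all genes the share was 4.27% with the replicate block and 3.29% to 4.89% with 1 array left out. The median difference was 0.0080 to 0.022 in those 7 settings and -0.069 to 0.078 with 1 array left out, which moves its sign. Among the 20 named members, 0 of 138 differences changed sign in the 7 settings, and 10 of 120 did so with 1 array left out, in 6 genes, where the array left out is the cause by construction. Their ranges were -0.26 to 0.44 for Mrpl23, -0.0020 to 0.37 for Mrpl34, -0.17 to 0.46 for Mrpl55, -0.86 to 0.19 for Mrps14, -0.11 to 0.028 for Mrps16 and -0.13 to 0.19 for Mrps18b. Mrpl23 had no value without the dimmest genes. Same-numbered arrays deviated together at r = -0.0475, -0.00273 and 0.0439 over all genes, and the numbers were not taken as a pairing. With so few arrays, such values cannot exclude one. With 3 arrays a genotype, the 95% intervals of the 76 differences had half-widths of 0.260 to 1.22, before adjustment for the number of genes.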
